A study of Arabidopsis thaliana with 4 samples.

Results

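The nuclear genes of the photosystems and their antennas were examined for H3K4me3, the trimethylation of lysine 4 of histone H3, in Arabidopsis roots under osmotic stress and in control roots. The set holds the genes on chromosomes 1 to 5 of the TAIR10.1 annotation whose product or description names light harvesting, a chlorophyll A/B binding protein, photosystem I or photosystem II. It counts 130 of the 37713 genes outside a block of organelle DNA on chromosome 2 (37899 with that block, in which 1 further gene matched). The product name matched in 57 genes and the description text alone in 73. The second kind brings in assembly factors, proteases and a few genes that only cite a photosystem protein as their closest match.

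The photosystems are the pigment and protein complexes of the thylakoid membrane that turn light into charge separation. Photosystem II splits water and passes electrons through the cytochrome b6f complex to photosystem I, and the antennas (LHCB proteins at photosystem II, LHCA proteins at photosystem I) collect light for both. The reaction centre cores are encoded in the chloroplast, while the antennas, many small subunits and nearly all assembly and repair factors are nuclear genes. Most of these are best known from leaves, where light induces the antenna genes strongly, and roots hold mainly plastids without photosynthesis. H3K4me3 marks nucleosomes just downstream of the transcription start site (TSS) of transcribed genes.

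Both groups were roots of the Col-0 ecotype, with 2 libraries labelled osmotic stress and 2 control libraries. The stress plates contained sorbitol in the medium and the control plates did not, and the study worked with root tips. In CUT&Tag an antibody brings a transposase to the mark, and the fragments around it are sequenced. The header of each peak table gives 15974955 and 25714827 fragments for the stress libraries, against 9011630 and 6396842 for the control libraries. The stress libraries were thus 2.71 times deeper on average, so that depth and condition cannot be told apart where peaks are merely present or missing. Tables held 14827 and 15839 peaks in the stress libraries, against 13752 and 12742 in the control libraries. The study calls its replicate samples biological, and the labels do not say which plants each library came from, so p-values measure the spread between these libraries only. Of 15 root marker genes 4 had a peak in every library and 7 in none, among them WOX5, which marks the quiescent centre. Of 12 shoot and leaf markers 1 had a peak in every library and 10 had none. Among the root markers tested, SHR and PHO1 were called lower and MYB66 higher in stress, and the part of cell composition in the results below was not tested. In bulk tissue, fewer cells with the mark and less mark per cell cannot be told apart. Signal was scaled to the fragments of each library, so higher and lower are relative to the library. A change of the mark across the whole genome could be hidden by this scaling. The study reports a significant rise of the H3K4me3 level under stress.

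A gene was counted as marked in a library if a peak overlapped the stretch from 1 kb upstream of its TSS to its end. Of the 130 genes, 90 and 100 were marked in the stress libraries, against 79 and 73 in the control libraries. These are 69.2% and 76.9% in stress, against 60.8% and 56.2% in control. Of all 27350 protein-coding genes, 64.2% and 66.9% were marked in stress, against 59.7% and 55.9% in control (all genes, 53.5% and 55.9% against 49.8% and 46.3%). The shares in control were thus close to those of protein-coding genes and those in stress were above them, with the largest gap in the deepest library. A peak in every library was found at 71 genes of the set, or 54.6%, against 54.4% of protein-coding and 44.9% of all genes. No library had a peak at 29 genes, or 22.3%, against 31.9% and 42.8%. A missing peak says only that the signal did not pass the cutoff of the peak caller.

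The share of marked genes was not even over the roles within the set. Among the 31 assembly and repair factors, 22 (71%) were marked in every library and 1 (3.23%) in none. Among the 47 antenna and subunit genes, which build the photosystems themselves, 18 (38.3%) were marked in every library and 19 (40.4%) in none. Within these 47 genes the antenna of photosystem II was least covered, with 4 of 15 genes marked in every library and 7 in none. AT1G76570, among the 4, was measured at a peak nearest to another gene's TSS in every library. The subunits of photosystem I followed with 4 of 13 and 5 of 13. The subunits of photosystem II had 7 of 13 and 5 of 13, and the photosystem I antenna 3 of 6 and 2 of 6. When only peaks over the first 500 bp of a gene were counted, which leaves out peaks found only upstream or further along the gene, 14 of the 47 antenna and subunit genes (29.8%) were marked in every library and 24 (51.1%) in none. The 31 assembly and repair factors then had 22 (71%) and 3 (9.68%), and protein-coding genes 45.6% and 41.7%. The order of the antennas depended on the measure. Over the first 500 bp, 53.3% of the photosystem II antenna genes and 66.7% of the photosystem I antenna genes had no peak. The shares with one in every library were 20% and 33.3%. The split was descriptive and was not tested.

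**Figure D1:**
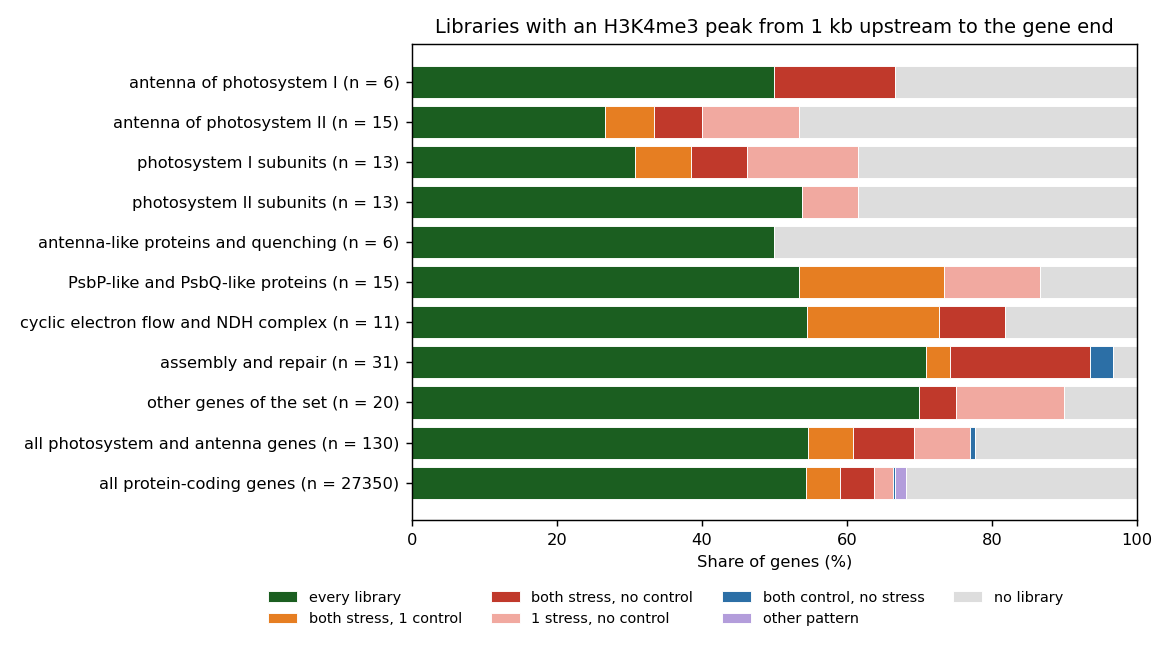
Share of genes (%) by the libraries in which a peak overlapped the gene or 1 kb upstream of it, for each role in the set, for the whole set and for all protein-coding genes. The dark green part, a peak in every library, covers 71% of the assembly and repair factors, 26.7% of the photosystem II antenna genes and 54.4% of protein-coding genes.

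The antenna of photosystem II is built mainly from LHCB1 and LHCB2 proteins, the trimers of the complex, each encoded by several copies. All were nearly bare of H3K4me3 peaks. Signal is given below as fragments stacked at the summit of the strongest overlapping peak per 1000000 fragments of the library (FPM). Of the LHCB1 genes, CAB2, CAB3, LHB1B1 and LHB1B2 had no peak in any library. CAB1 had a weak peak in the stress libraries only, with a signal of 2.13 and 1.98 FPM and a fold enrichment over the local background of 2.94 and 3.17. Both values lay low beside protein-coding genes with a peak in every library, whose medians were 14.0 and 13.1 FPM in these libraries. At an equal depth of all libraries the CAB1 peak passed the cutoff in none. CAB1, CAB2 and CAB3 lie side by side and match each other at 95% identity or more over 67.6%, 62.6% and 68.4% of their length, so that reads in these stretches can be hard to place. Of the LHCB2 genes, LHCB2.2 and LHCB2.3 had no peak, and LHCB2.1 had one in stress replicate 2 only, at 0.933 FPM. LHCB3, the third trimer protein, had 2.32 and 2.96 FPM in the stress libraries, against 2.55 FPM in control replicate 1 and no peak in control replicate 2.

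The minor antennas, which link the trimers to the core, were mostly marked. LHCB4.1 had 9.45 and 10.1 FPM in the stress libraries, against 8.65 and 10.2 in the control libraries. LHCB4.2 had 8.39 and 7.23 FPM, against 9.54 and 10.5 in control, and LHCB6 11.5 and 9.49, against 12.3 and 13.0. Both stress libraries lay below both control libraries at LHCB4.2 and LHCB6, and at LHCB4.1 the groups overlapped. None of the 3 was called (limma adjusted p = 0.81, 0.069 and 0.14). Measured as fold enrichment, LHCB4.2 was called lower (log2 −0.46, limma adjusted p = 0.019), and LHCB4.1 and LHCB6 were not called. LHCB5 had no peak, and the peak of stress replicate 2 at LHCB4.3 reached only its end from the start of AT2G40110. The copies LHCB4.1, LHCB4.2 and LHCB4.3 thus differed, as did the PSBO, PSBP, PSBQ and PSAE pairs below. The pairs were picked after their values were seen.

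In the antenna of photosystem I, LHCA4 carried a clear peak. Its protein pairs with LHCA1 and holds the pigments that absorb farthest to the red. LHCA4 had 10.9 and 8.40 FPM in the stress libraries, against 13.0 and 14.7 in the control libraries. Both stress libraries were below both control libraries, and the gene was called lower (log2 −0.53 ± 0.14 (SE), limma adjusted p = 0.0044). LHCA3 was marked weakly and evenly, with 3.63 and 3.34 FPM in stress, against 3.55 and 3.13 in control, at fold enrichments of 4.41 and 5.26, against 4.86 and 3.68. LHCA2 and Lhca5 had no peak. At LHCA1 the stress libraries had 15.3 and 14.5 FPM and the control libraries no peak, but the summit lay at −1067 bp from the TSS, outside the window and nearest to the TSS of CXIP1. Lhca6, a link between photosystem I and the NDH complex, was covered by a peak at AT1G19140 in every library.

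Among the subunits of photosystem II, the paired copies of the oxygen-evolving complex, the lumenal shield of the manganese cluster, were unlike each other. PSBO2 had 17.9 and 16.5 FPM in the stress libraries, against 22.4 and 24.4 in the control libraries, while PSBO1 had no peak in any library. PSBO2 was the only subunit gene called, lower in stress (log2 −0.44 ± 0.12 (SE), limma adjusted p = 0.0077). Measured as fold enrichment, with 3.02 and 3.18 in stress, against 3.33 and 3.52 in control, the fall of PSBO2 was smaller and not called (log2 −0.15, limma adjusted p = 0.37). PSBP-1 had 6.07 and 5.17 FPM in stress, against 6.10 and 7.04 in control, while PSBP-2 had no peak. PSBQA had 4.76 and 4.74 FPM in stress, against 6.21 and 5.16 in control, and its partner PSBQ-2 had a peak only in stress replicate 2, at 2.96. PSBR, PSBX and AT1G51400, a photosystem II protein named for its small size, were marked in every library with log2 changes of 0.05, 0.20 and 0.08, none called. The summits at AT1G51400 lay far upstream, between −969 and −928 bp from its TSS. PSBW, PSBY and AT4G37230 had no peak, and PSBTN was covered by a peak nearest to the TSS of RBL.

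In photosystem I, the copies of PSAE were also unlike each other. PSAE-2 had 7.01 and 5.37 FPM in stress, against 7.55 and 7.66 in control, and PSAE-1 no peak. PSAD-1 and PSAD-2 encode the ferredoxin docking subunit. PSAD-2 had no peak, and the one at PSAD-1 (11.0 and 9.14 FPM in stress, against 9.77 and 10.6 in control) was nearest to the TSS of AT4G02760. A difference between the PSAD copies is therefore not shown. PSAG had 9.45 and 8.36 FPM in stress, against 10.3 and 9.38 in control, but no peak overlapped its first 500 bp in any library. PSAH-1, PSAH2 and PSAL, which form the docking side for mobile antennas, had no peak. None of the 4 photosystem I subunits with a peak in every library was called, with log2 changes between −0.31 and 0.09. Of these, PSAD-1 and AT1G49975 (at CLPR1) were measured at a peak nearest to a neighbour's TSS.

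**Figure D2:**
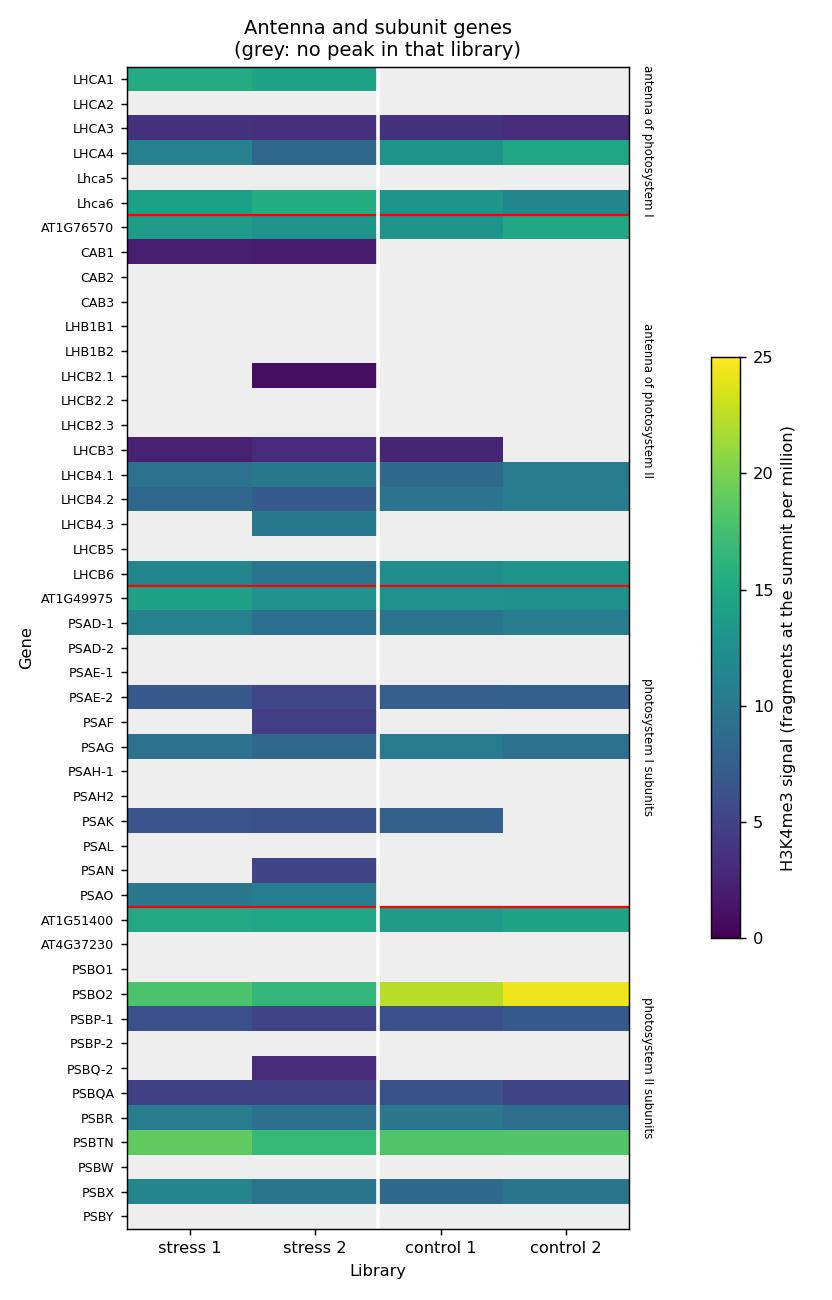
Signal (FPM, colour) of the 47 antenna and subunit genes in each library, stress left and control right of the white line, with grey where no peak was called. Most rows of LHCB1 and LHCB2 genes are grey, and PSBO2 is the brightest row in both control libraries, with 17.9 and 16.5 in stress, against 22.4 and 24.4 in control.

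The 250 bp upstream of the TSS are shown for 3 genes on which this contrast turns: the bare copy PSBO1, the called antenna gene LHCA4 and the stress-only CAB1. Sequences are those of the RefSeq TAIR10.1 assembly, written in the direction of transcription. Capitals mark matches to the G-box CACGTG, the I-box GATAAG, the CCAAT box or the ACGT core, which lies inside the G-box, searched on both strands (the CCAAT box reads ATTGG on the other strand). PSBO1 lies on the plus strand, at chr5:26568322-26568571. LHCA4 is on the minus strand, at chr3:17495034-17495283, and CAB1 on the plus strand, at chr1:10477635-10477884.
PSBO1: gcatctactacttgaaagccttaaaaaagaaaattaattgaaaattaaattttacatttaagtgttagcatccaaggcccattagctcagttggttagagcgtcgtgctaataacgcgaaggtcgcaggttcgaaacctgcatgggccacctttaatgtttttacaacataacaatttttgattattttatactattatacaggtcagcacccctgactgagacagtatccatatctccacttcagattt
LHCA4: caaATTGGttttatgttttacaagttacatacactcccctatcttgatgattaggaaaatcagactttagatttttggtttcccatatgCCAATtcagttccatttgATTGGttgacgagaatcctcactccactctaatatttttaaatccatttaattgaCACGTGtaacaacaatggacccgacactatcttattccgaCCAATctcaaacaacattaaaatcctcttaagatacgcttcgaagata
CAB1: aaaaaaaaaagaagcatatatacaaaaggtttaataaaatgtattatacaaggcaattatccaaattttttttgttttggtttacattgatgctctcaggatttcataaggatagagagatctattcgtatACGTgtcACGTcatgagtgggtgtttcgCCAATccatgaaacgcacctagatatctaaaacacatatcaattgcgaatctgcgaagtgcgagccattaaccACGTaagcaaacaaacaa

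Peaks covered 0% of the PSBO1 stretch in every library. The PSBO1 stretch holds no match to the 4 motifs and contains AT5G66568, an annotated tRNA-Ile gene. In LHCA4 a G-box starts 88 bp upstream of the TSS, among 4 CCAAT boxes, and peaks covered 86% and 100% of the stretch in stress, against 100% in both control libraries. In CAB1, which has 3 ACGT cores and no full G-box, they covered 93.6% and 100% in stress, against 0% in both control libraries.

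The G-box is bound by bZIP and bHLH factors of light signalling, HY5 and the PIFs among them. It was present within 250 bp upstream at 12 of the 47 antenna and subunit genes, or 25.5%, against 6.5% of all 27350 protein-coding genes. The share was 9.68% among assembly and repair factors and 17.8% among the 129 protein-coding genes of the set. The I-box, known from light-regulated promoters, was found at 23.4% of antenna and subunit genes, against 12.3% of protein-coding genes, and the CCAAT box at 63.8%, against 46.1%. The ACGT core was at 55.3%, against 44.1%. Within the set, the G-box was at 24.1% of the 29 genes with no peak and at 21.4% of the 70 protein-coding genes with a peak in every library. A match is a run of letters and not a bound site, and these shares were not tested.

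**Figure D3:**
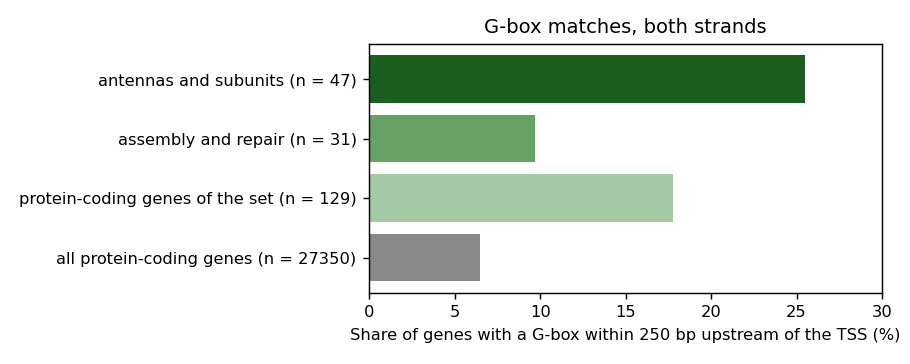
Share of genes (%) with the G-box CACGTG on either strand within 250 bp upstream of the TSS. The bars stand at 25.5% for antenna and subunit genes, 9.68% for assembly and repair factors, 17.8% for the protein-coding genes of the set and 6.5% for all protein-coding genes.

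Signal could be compared between conditions at the 71 genes with a peak in every library. Its log2 values were fitted with limma and p-values adjusted by Benjamini-Hochberg over all 16927 genes of this kind. The median signal of these 71 genes was 11.0 and 9.72 FPM in the stress libraries, against 11.2 and 10.9 in the control libraries. Protein-coding genes with a peak in every library had 14.0 and 13.1, against 13.0 and 13.1. At an adjusted p under 0.05, 4 of the 71 genes (5.63%) were higher and 12 (16.9%) lower in stress, against 8.54% and 11.1% of all genes tested and 8.67% and 10.5% of protein-coding genes. At an unadjusted p under 0.05 there were 9 higher (12.7%) and 16 lower (22.5%), against 15.3% and 17.9% of all genes tested. Both stress libraries lay above both control libraries at 19 of the 71 genes (26.8%, against 30.3% of all genes tested) and below them at 25 (35.2%, against 30.4%). The median log2 change was −0.04, against −0.0011 for all genes tested, and it was above 0 with fold enrichment in place of the signal (0.05), with missing peaks filled in (0.06) and without stress replicate 2 (0.05). The median over all genes tested was 0.03, 0.05 and 0.05 in these settings.

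**Figure D4:**
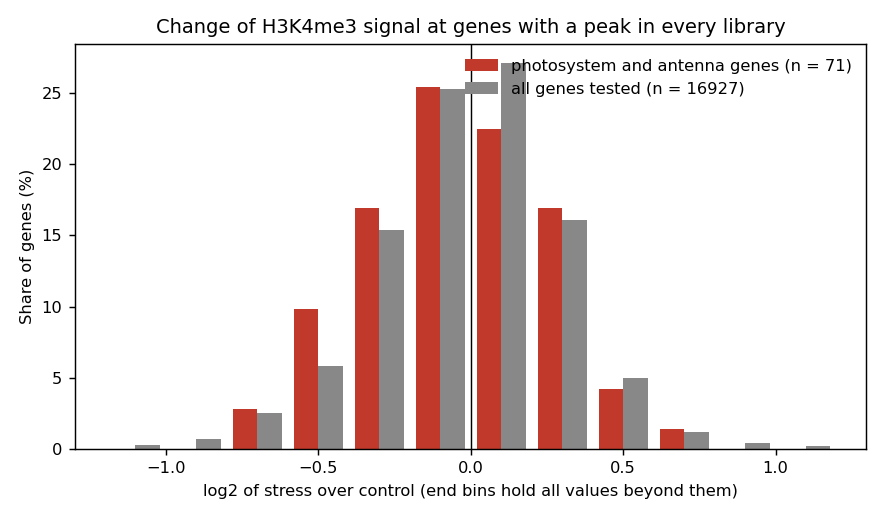
Distribution of the log2 change of stress over control for the 71 photosystem and antenna genes and all 16927 genes with a peak in every library, as a share of genes (%) in each bin. Both are centred near 0, with medians of −0.04 and −0.0011.

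In TAIR10.1 coordinates, the called genes described in most detail lie as follows: PSI-P (AT2G46820) at chr2:19243348-19245141, DEG5 (AT4G18370) at chr4:10148951-10151218, ATPD (AT4G09650) at chr4:6100714-6101864, LHCA4 (AT3G47470) at chr3:17493343-17495033, HCF243 (AT3G15095) at chr3:5081780-5084240, HCF173 (AT1G16720) at chr1:5722891-5726478 and AT5G11770 at chr5:3790708-3793026. All are protein-coding, and each had a peak over its first 500 bp in every library.

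The strongest peak of a window can belong to a neighbour in this compact genome. It was nearest to the gene's own TSS in every library at 46 of the 71 genes (64.8%, against 68.6% of protein-coding genes) and nearest to another gene's TSS in every library at 16. Of the 12 genes called lower, 7 had their own TSS nearest in every library, and of the 4 called higher, 2.

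Among the genes called lower with a peak at their own TSS, assembly and repair factors and a few thylakoid proteins stood beside LHCA4 and PSBO2. PSI-P, also known as CURT1B, bends thylakoid membranes at the edges of grana. PSI-P had 8.33 and 7.35 FPM in the stress libraries, against 12.5 and 11.6 in the control libraries (log2 −0.62 ± 0.14 (SE), limma adjusted p = 0.0010). In stress replicate 2 the strongest peak at PSI-P had its summit at −1130 bp from the TSS, and over the first 500 bp of the gene the change was much the same (log2 −0.63, limma adjusted p = 0.00022). DEG5, a lumenal protease that acts in the turnover of the D1 protein of photosystem II, had 16.2 and 11.2 FPM in stress, against 21.4 and 19.9 in control (log2 −0.61 ± 0.13 (SE), limma adjusted p = 0.00067). ATPD, the delta subunit of the chloroplast ATP synthase, had 15.7 and 12.8 FPM in stress, against 20.1 and 20.9 in control (log2 −0.54 ± 0.12 (SE), limma adjusted p = 0.0015). With fold enrichment the change of ATPD was smaller and not called (log2 −0.22, limma adjusted p = 0.12). Both stress libraries were below both control libraries at each of these, and stress replicate 2 was the lowest of the 4.

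HCF243, which stabilises the D1 protein, had the highest signal of the set. HCF243 had 29.2 and 26.1 FPM in stress, against 35.5 and 36.1 in control, above 98.2% of all genes tested by its mean. Its fall passed the threshold narrowly (log2 −0.38 ± 0.14 (SE), limma adjusted p = 0.050). AT5G27390, a protein of the PsbP family, had 19.7 and 15.8 FPM in stress, against 21.4 and 23.8 in control (log2 −0.36, limma adjusted p = 0.039). LPA19, a helper in the processing of the D1 precursor, shares its upstream region with AT1G05400, and the strongest peak was nearest to AT1G05400 in stress replicate 2 and control replicate 2. LPA19 had 8.26 and 6.84 FPM in stress, against 11.3 and 9.85 in control (log2 −0.49, limma adjusted p = 0.013).

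The remaining 4 genes called lower were measured at a neighbour's TSS in every library. PnsB2 and PnsL1, subunits of the NDH complex of cyclic electron flow, had log2 changes of −0.43 and −0.36 at peaks nearest to AT1G64760 and RPL23AA. AT3G63540, of the PsbP family, had −0.48 at a peak nearest to BB, and LIL3:2, an antenna-like protein that anchors an enzyme of chlorophyll synthesis, −0.52 at BI1. When only peaks over the first 500 bp of the gene were counted, PnsB2 and PnsL1 had none in any library and AT3G63540 had them in both stress libraries and 1 control library. At LIL3:2 the same peak also reached the first 500 bp in every library. The values there are those of its summit nearest to BI1, so the equal change (log2 −0.52, limma adjusted p = 0.00083) is not a separate measure. The values at these 4 genes therefore cannot be read as those of the photosystem gene itself.

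Of the 4 genes called higher, HCF173 is a close partner of the photosystem, as an activator of the translation of the psbA messenger for D1. HCF173 had 9.08 and 9.33 FPM in the stress libraries, against 6.21 and 7.19 in the control libraries (log2 0.46 ± 0.15 (SE), limma adjusted p = 0.024). AT5G11770 had the largest rise of the set, with 16.8 and 18.6 FPM in stress, against 10.7 and 11.9 in control (log2 0.65 ± 0.13 (SE), limma adjusted p = 0.00016). It encodes the NADH-ubiquinone oxidoreductase 20 kDa subunit of mitochondrial complex I and entered the set through its description only. PPD1, a PsbP-domain protein of photosystem I assembly, and TAAC, an ATP/ADP carrier of the thylakoid, had log2 changes of 0.53 and 0.47. Their strongest peaks were nearest to AT4G15520 and RUS5 in every library but control replicate 2, so the groups may not measure the same peak. Over the first 500 bp TAAC changed by log2 0.09 (limma adjusted p = 0.72). There PPD1 had 6.07 and 6.22 FPM in stress, against no peak in control replicate 1 and 5.94 FPM in control replicate 2.

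**Figure D5:**
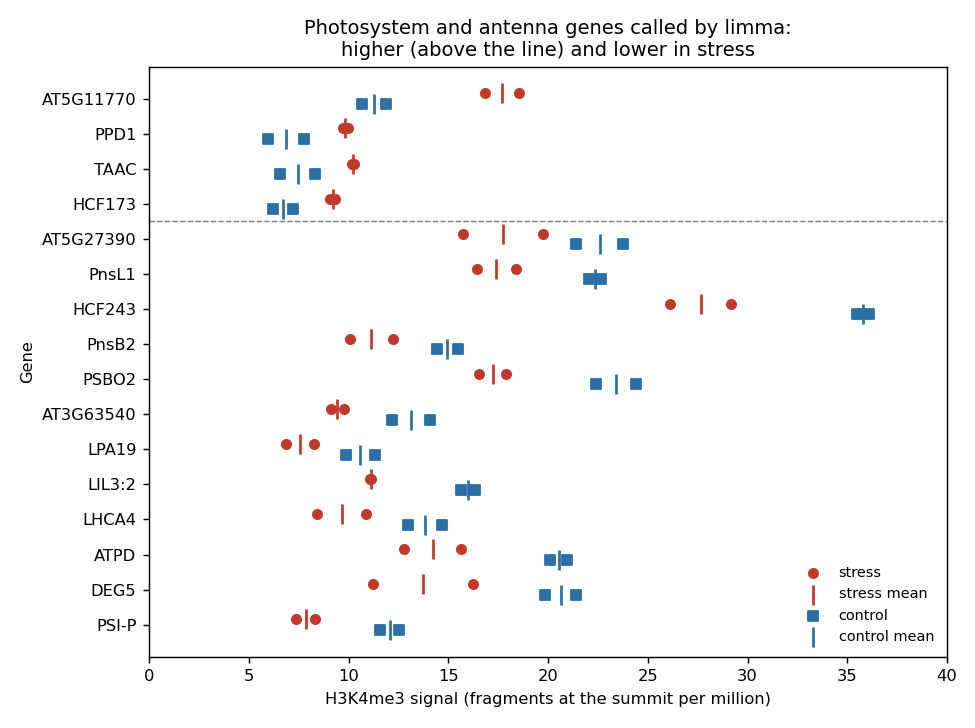
Signal (FPM) of the 16 called genes in the stress libraries (circles) and control libraries (squares), with the group means as vertical bars. The 4 genes above the dashed line were higher in stress and the 12 below it lower, and in each row the groups do not overlap.

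Leaving out any single library could not turn the direction of any of the 16 called genes, since their groups did not overlap. Log2 changes then ranged from −0.71 to −0.53 at PSI-P, −0.68 to −0.39 at ATPD and 0.57 to 0.73 at AT5G11770. At LIL3:2, measured at a peak nearest to BI1, they ranged from −0.56 to −0.49. With fold enrichment in place of the signal 9 of the 16 calls held, those of PSI-P and AT5G11770 among them. The calls lost were those of PSBO2 and ATPD (above), LIL3:2 (log2 −0.28, limma adjusted p = 0.11), LPA19 (log2 −0.37, limma adjusted p = 0.064), HCF173 (log2 0.29, limma adjusted p = 0.084), TAAC (log2 0.30, limma adjusted p = 0.078) and PPD1 (log2 0.47, limma adjusted p = 0.054). Calls gained were LHCB4.2 (above), AT1G71500 (log2 −0.53, limma adjusted p = 0.011), PPL1 (log2 −0.49, limma adjusted p = 0.012) and LIL3:1 (log2 0.47, limma adjusted p = 0.011). The strongest peak at PPL1 was nearest to PHIP1, and that at AT1G71500 to AT1G71490 except in stress replicate 1. With missing peaks filled in across all genes, the log2 changes were the same but 14 of the 16 calls were lost, that of PSI-P among them (limma adjusted p = 0.061), and those of LIL3:2 and AT5G11770 held. Without stress replicate 2, DEG5 was lower by log2 −0.35 (limma adjusted p = 0.079) and LHCA4 by log2 −0.34 (limma adjusted p = 0.17), and the call of LHCA4 was also lost without control replicate 2. PSBO2 lost its call without control replicate 2 only (limma adjusted p = 0.13). HCF243, PnsL1 and AT5G27390 kept their call only without stress replicate 1, with limma adjusted p up to 0.37, 0.18 and 0.36 in the other cases. HCF173 kept it only without control replicate 2 (otherwise limma adjusted p up to 0.17), and PPD1 and TAAC only without control replicate 1 (up to 0.19 and 0.26). LPA19 and AT3G63540 lost it without stress replicate 2 or control replicate 1 (up to 0.22 and 0.13), and PnsB2 without replicate 2 of either group (up to 0.23).

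Most assembly and repair factors were marked in every library at much the same level in both conditions. The thylakoid FtsH proteases, which remove damaged D1, gave VAR1 14.59 and 11.98 FPM in stress, against 13.43 and 12.66 in control. VAR2, their main partner, had 17.4 and 13.6 FPM in stress, against 16.2 and 16.7 in control. Neither changed by more than 0.10 on the log2 scale. The lumenal proteases DEG1 and DEG8, which act beside DEG5, had log2 changes of 0.13 and 0.19 and were not called. STN8, the kinase that phosphorylates core proteins, changed by −0.0018 and PSB28 by −0.06. Of the 22 factors tested, 1 was called higher (4.55%) and 3 lower (13.6%), against 8.54% and 11.1% of all genes tested, with a median log2 change of 0.04. The factor with no peak in any library was HCF136, which is needed to build the photosystem II core.

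Peaks in both stress libraries but in neither control library were found at 11 genes, or 8.46%, against 4.68% of protein-coding and 4.07% of all genes. The 10 with the highest fold enrichment were CAB1, FTSH8, PGRL1B, CPFTSY, TLP18.3, ATAB2, PETC, CYP38, LPA2 and PSAO, with LHCA1 the remaining one. Assembly and repair factors made up 6 of them. FTSH8 is a thylakoid protease, CPFTSY the receptor that delivers antenna proteins to the membrane, TLP18.3 a lumenal phosphatase of the repair cycle, ATAB2 an activator of photosystem translation, CYP38 a lumenal folding factor and LPA2 an assembly protein. CPFTSY had 6.13 and 6.18 FPM, ATAB2 7.14 and 6.73, CYP38 6.32 and 6.53 and TLP18.3 5.38 and 5.64 in the stress libraries, with the TSS of the gene itself nearest. Fold enrichments were low, between 1.72 and 3.17 over the 11 genes. Signal was not low at all of them, with 15.3 and 14.5 FPM at LHCA1 and 9.95 and 10.5 at PSAO. PETC, the Rieske protein of the cytochrome b6f complex, had 3.38 and 2.68 FPM, and PGRL1B, of cyclic electron flow, 5.82 and 4.82. The peaks at PSAO were nearest to AT1G08390, and that of FTSH8 in stress replicate 2 to AT1G06440.

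Depth bears on these counts directly. With pileup and background of every library scaled to the depth of control replicate 2 and the p cutoff applied again, 6 genes still had peaks in stress 1 and 2 but not in control (4.62%, against 2.99% of protein-coding genes). They were PSAO, TLP18.3, CPFTSY, ATAB2, LHCA1 and PGRL1B. FTSH8, CYP38 and LPA2 kept a peak in 1 stress library, and CAB1 and PETC in none. The scaling kept 71 genes with a peak in every library (54.6%, against 53.7% of protein-coding genes). It left 38 with none (29.2%, against 34.7%). A further 10 genes, or 7.69%, had a peak in 1 stress library and no control library, PSAF, PSAN and PSBQ-2 among them, against 2.72% of protein-coding and 2.47% of all genes. In all 10 that library was stress replicate 2, the deepest. Another 8 genes, or 6.15%, lacked a peak in 1 control library only, against 4.59% of protein-coding and 3.99% of all genes. The reverse pattern held at 1 gene, AT3G60370, or 0.769%, against 0.165% of protein-coding and 0.239% of all genes. The gene encodes a lumenal immunophilin. Its values of 15.8 and 16.4 FPM came from a peak whose summit lay beyond the gene, nearest to the TSS of EDA14, and no peak overlapped its first 500 bp.

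Genes with no peak in any library, in order of gene ID, began with PSAD-2, NPQ1, CAB3, CAB2, NPQ4, Lhca5, AT1G52220, PSAH2, PSBY and NdhL. NPQ1 and NPQ4 are the pair best known for the harmless loss of excess light as heat, the xanthophyll de-epoxidase and the pH sensor PsbS. Near-identical copies elsewhere in the genome, at 95% identity or more over at least 100 bp, were found for 10 of the 130 genes and for 5 of the 29 without a peak, so that 24 of the 29 had no such match. LHCA2 is counted among the 24 because its own search gave no match, although the search with AT5G28450 listed LHCA2 as a copy.

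At the low end of the genes marked in every library stood AT1G56500, CH1 and LHCA3. AT1G56500, a thylakoid protein of the slow quenching of antennas, had 2.38 and 2.14 FPM in stress, against 2.55 and 2.19 in control. CH1, the oxygenase that makes chlorophyll b, had 4.13 and 3.07, against 3.22 and 2.97 in control. At all 3 the groups overlapped, with limma adjusted p between 0.52 and 0.88. At the high end, after HCF243, PnsL2 had 21.8 and 21.9 FPM in stress, against 21.1 and 18.9 in control, at a peak nearest to UCP3. PSBO2 followed.

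Lengths and summit positions were taken over genes with a peak in every library. In each library the strongest peaks at the set had a shorter median length than those at protein-coding genes. Their median length was 1060 and 1132 bp in the stress libraries, against 838 and 777 bp in the control libraries, and at protein-coding genes 1128 and 1181 bp, against 939 and 843 bp. The median summit position, counted as positive downstream of the TSS, was 110 and 124 bp in stress, against 45 and 72 bp in control, and at protein-coding genes 210 and 231 bp, against 143 and 148 bp. It is a signed value and includes peaks of neighbours upstream. Of the genes of the NDH complex and cyclic electron flow, 6 had a peak in every library. Their medians were −571.5 and −611 bp in stress, against −711 and −759 bp in control. At the set and at protein-coding genes, the deeper stress libraries had the longer peaks. For the 18 of the 47 antenna and subunit genes with a peak in every library, the length was 957 and 1121 bp in stress, against 740 and 500 bp in control.

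Other genes of photosynthesis were examined from lists of pathway members. For comparison, 54.4% of protein-coding genes were marked in every library and 31.9% in none. Of all genes tested, 8.54% were called higher and 11.1% lower. Of 21 genes of chlorophyll synthesis, CH1 included, 16 were marked in every library and 4 in none. Only GSA1, an early enzyme of the pathway, was called, higher with 9.39 and 11.0 FPM in stress, against 8.43 and 6.10 in control (log2 0.50, limma adjusted p = 0.015). Of 18 Calvin cycle genes, 5 were marked in every library and 9 in none. Only 1 of the 5, AT3G60750, had its own TSS nearest to the strongest peak in every library. PGK1, phosphoglycerate kinase, had 16.96 and 15.01 FPM in stress, against 9.88 and 9.22 in control, and was called higher (log2 0.74, limma adjusted p = 4.2e-05). Its strongest peak was nearest to SDRB in stress and to its own TSS in control, so the groups may not measure the same peak. The transketolase gene AT3G60750 was called lower (log2 −0.45, limma adjusted p = 0.018). Among 15 genes of electron carriers and the chloroplast ATP synthase, of which 6 belong to the set, 8 were marked in every library. FED A, the main leaf ferredoxin, had 9.08 and 9.29 FPM in stress, against 13.4 and 12.7 in control (log2 −0.51, limma adjusted p = 0.0050), and ATPD was the other gene called lower.

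Of 18 regulators of light responses and chloroplasts, 12 were marked in every library and 3 in none. GLK2, a transcription factor that switches on photosystem genes, had 9.20 and 8.40 FPM in stress, against 12.2 and 13.4 in control (log2 −0.54 ± 0.14 (SE), limma adjusted p = 0.0031). PHYB, the red-light receptor phytochrome B, had 17.5 and 16.7 FPM in stress, against 14.1 and 12.8 in control (log2 0.35, limma adjusted p = 0.038). The other 10 regulators tested were not called. The shares called were 8.33% higher and 8.33% lower, against 8.54% and 11.1% of all genes tested.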

How the data were processed

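H3K4me3 CUT&Tag peak tables of 2 stress and 2 control libraries formed the data. Deposited values per peak are a pileup (a signal counted in fragments, unscaled), a fold enrichment (the authors' ratio over local background), and −log10 p-values and q-values. Per the file headers, each library had its own peak calling by MACS 2.2.7.1 at a p cutoff of 1e-05, on paired fragments with duplicates kept. The effective genome size was set to 2700000000 bp, far above the size of the Arabidopsis genome. How this setting affects weak peaks and their fold enrichment was not tested. The submitters' processing notes name fastp 0.19.7, Bowtie2 2.3.5.1 and the TAIR10 build. Filters on reads are not given in the sources used here. The deposited columns returned the −log10 p-values within 0.00119.

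Genes, products and descriptions (the note text of genes and proteins) came from the RefSeq annotation of TAIR10.1, in which chromosomes 1 to 5 extend past every peak. Pileups were divided by the header fragments per 1000000 and compared with limma 3.58.1 (lmFit and eBayes with trend, R 4.3.3, Benjamini-Hochberg) over genes with a peak in every library. The script was tested on simulated data. Matches between genes were found with blastn 2.17.0+. Other steps used Python 3.11.15 and pandas 2.3.3.

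The genes of the set, the lists and the roles were chosen with earlier results of these data known. Named are called genes, at most 10 with a peak in a single condition, the 3 highest and 3 lowest, the first 10 with no peak, and up to 5 called genes per list. Genes outside this rule, such as LHCA1 and the paired copies, were named after their values were seen. Alternatives with protein-coding genes only, the first 500 bp of the gene and matches by product alone were added after seeing the data. A sequence computed for 1 of the genes is not reported here.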

Additional observations from a re-analysis of the deposited data

How the results depend on the processing

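The counts of 4 genes higher and 12 lower moved with the measure. With overlapping peaks of the 4 libraries merged into regions, 6 of 75 genes were higher and 15 lower, against 10.4% and 12% of all regions tested. Fewer genes were called higher with fold enrichment (2 of 71) and a summit inside the window (2 of 63). The same held with a −log10 q of at least 10 (2 of 58), peaks over the first 500 bp (2 of 56) and product matches alone (1 of 24). With a fold enrichment of at least 4 it was 0 of 25, with 2 at an unadjusted limma p under 0.05. Of all genes tested, 7.72%, 9.49%, 7.6%, 9.53%, 8.54% and 6.6% were called higher in these settings, in the same order. With peaks in at least 2 libraries and missing values filled by the lowest signal of that library, 9 of 91 were higher and 2 lower. Of all genes tested in that setting, 6.1% were higher and 2.23% lower. The median log2 change of the set was 0.061. Such filling gives genes without a control peak a low control value by construction. Fewer genes were called lower with a fold enrichment of at least 4 (5 of 25), product matches alone (6 of 24) and the first 500 bp (8 of 56). In the gene body it was 9 of 60, and with a summit inside the window 9 of 63. Of all genes tested, 10.9%, 11.1%, 12.2%, 11.3% and 11.9% were called lower in these settings, in the same order. Lower calls were 13 of 58 with a −log10 q of at least 10, against 11.7% of all genes tested. They were 11 of 71 with fold enrichment, against 6.04%, and 10 of 71 without the trend in limma, against 10.1%. With each library divided by its median, 4 were higher and 16 lower, and the share of lower calls over all genes moved to 19.4%, against 8.29% higher. With one library left out, 1 to 3 were higher and 4 to 14 lower, and the median log2 change lay between −0.12 and 0.05. With the replicate number as a block, the counts were 4 and 12 and the median −0.04, and HCF243 lost its call. The deviations of same-numbered libraries correlated at −0.0040 across genes. This value cannot show whether such libraries share a batch or plants, and the labels give only the number. None of the 16 called genes reversed its direction in an alternative that gave it a value. Where a library was left out this was fixed in advance, since the groups of these genes did not overlap. Genes that were not called and had small changes could reverse, for example PSAG, with log2 −0.15 by signal and 0.11 by fold enrichment.

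Presence depended on the cutoff. With a fold enrichment of at least 4, 25 genes had a peak in every library, 75 in none, 5 in stress only and 4 in control only. These were 19.2%, 57.7%, 3.85% and 3.08%, against 24.9%, 58.9%, 2.85% and 1.67% of protein-coding genes. At equal depth 6 were in stress only (4.62%, against 2.99% of protein-coding genes). The control-only gene was lost (0) with a summit inside the window, over the first 500 bp and with product matches alone. Product matches alone left 57 genes, 24 with a peak in every library, 19 with none and 2 in stress only. These were 42.1%, 33.3% and 3.51%, against 54.4%, 31.9% and 4.68% of protein-coding genes. With one library left out, 71 to 78 genes had a peak in every library, 29 to 39 in none, 11 to 21 in stress only and 1 in control only. A pileup is known only where a peak was called, so falls to no peak are outside the test, and the shallow control libraries limit what can be detected there.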

Other observations

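The photosystem cores are encoded in the chloroplast genome, which carries no histones, and these genes lie outside the comparisons above. The tables listed 14 and 22 peaks on the chloroplast genome in the stress libraries, against 25 and 12 in the control libraries. Of its 20 psa and psb genes, 8 and 8 were overlapped by one in the stress libraries, against 9 and 5 in the control libraries. Fold enrichment was low there, with a median over chloroplast peaks of 1.61 and 1.64 in the stress libraries, against 1.483 and 1.495 in the control libraries. Peaks on chromosomes 1 to 5 had medians of 3.83 and 3.81 in stress, against 3.919 and 4.002 in control.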
